A study of Homo sapiens with 18 samples.

Results

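A set of 10 genes was followed whose signal differed between DMSO replicates 1 to 3 and DMSO replicates 4 to 6 in cultures of OCI-AML3, a human acute myeloid leukaemia cell line. They are CACHD1, RAVER2, ITPRIPL1, SERPINE2, ZFYVE9, PTGER3, CLSTN2, IGSF10, SPATA6 and IER5, out of 17687 genes with a named probe, and each of the 10 has 1 probe. The cells, labelled wildtype, were treated for 24 h with the MDM2 inhibitor RG7112 at 2 µM, with the MDM2 inhibitor HDM201 at 500 nM, or with the solvent DMSO, with 6 biological replicates per group and 18 arrays in all. All 3 groups were grown in the same medium with fetal calf serum, and each compound was used at a single dose, so the results describe a single line and time point. The replicate numbers 1 to 3 and 4 to 6 are called sets here. The labels do not say what separates them or how the cultures were kept apart, so the p-values rest on the scatter among the arrays, which may be technical. Values are log2 signals, and a difference of 1 is 2-fold.

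MDM2 is a ubiquitin ligase that keeps the transcription factor p53 low, and its inhibitors let p53 accumulate and switch on its target genes. The genes followed here serve unrelated roles. CACHD1 is a relative of the alpha2delta subunits of calcium channels and modulates T-type channels, RAVER2 is an RNA-binding partner of the PTB splicing factors, and CLSTN2 is a calsyntenin, a cadherin-type membrane protein studied mainly at synapses. SERPINE2, also called protease nexin 1, is a secreted inhibitor of thrombin and urokinase. PTGER3 is the EP3 receptor of prostaglandin E2. ITPRIPL1 is a membrane protein that has been described as a ligand of the T cell receptor chain CD3 epsilon. ZFYVE9, also called SARA, presents SMAD proteins to the TGF-beta receptor. IER5 is an immediate early gene that acts on heat shock factor 1 and is induced by p53 in some cells. SPATA6 is needed in mice to join the sperm head and tail, and IGSF10 is a large immunoglobulin superfamily protein.

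Treatment and cell type were checked against known genes. CDKN1A, the gene of the cell cycle brake p21, averaged 12.63 and 11.77 in RG7112 replicates 1 to 3 and 4 to 6, 12.72 and 11.95 in the same sets of HDM201, and 9.06 and 7.41 in those of DMSO. MDM2, itself a p53 target, rose by 2.57 under RG7112 (adjusted p = 1.07e-14) and by 2.58 under HDM201 (adjusted p = 7.24e-15, limma). Of 12 listed myeloid genes 9 were measured, 7 of them above the median signal, with LYZ at 12.9, SPI1 at 10.5 and CEBPA at 9.96. The granule gene MPO, at 5.45, and CD14, at 5.99, were below it. The T and NK cell list averaged 4.34 to 4.57 on single arrays, with 1 of 6 genes above the median signal, NKG7 at 7.50, and CD3D at 3.92. Of 4 measured B cell genes 3 were above the median signal, with CD79A at 6.91, CD79B at 6.63 and PAX5 at 6.52 (MS4A1 was at 3.76), and the list averaged 5.68 to 6.10 on single arrays. Above the median signal were also 1 of 6 measured erythroid and megakaryocyte genes (HBA1 at 7.31). The same held for 2 of 7 fibroblast and epithelial genes (COL1A2 highest, at 8.32) and 2 of 4 endothelial genes (PECAM1 highest, at 7.45). These levels do not show whether such cells are present, and their part in the results was not tested. Array medians lay between 6.44 and 6.57 and the lowest signals between 2.66 and 2.85. RG7112 replicate 3 stood apart, with an interquartile range of 3.45 against at least 3.70 on the other arrays, and calls that change without it are given below both ways.

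The DMSO differences chose the genes and are given as a description with no test. In DMSO, 5 genes were lower in replicates 1 to 3 than in 4 to 6, with differences of −2.08 for CACHD1, −1.51 for RAVER2, −1.50 for ITPRIPL1, −1.07 for SERPINE2 and −0.69 for ZFYVE9. The other 5 were higher in replicates 1 to 3: PTGER3 by 1.33, IGSF10 by 1.07, CLSTN2 by 0.90, SPATA6 by 0.75 and IER5 by 0.61. By size these differences ranked from 1 (CACHD1) to 204 (IER5) among 21448 probes, so that the list is a selection and not the top of the ranking. In all 10 genes the DMSO arrays of the sets did not overlap, as for 14.1% of all probes, and nothing is read from this since the choice rests on these arrays. The RG7112 and HDM201 arrays took no part in the choice, and differences between the sets were tested there.

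The set difference passed in at least 1 treated group for 7 of the 10 genes and in both for 4. No share of all probes is given for these joint counts, so they are a description. It did not pass in either for PTGER3, IGSF10 and SPATA6, although PTGER3 passed in both treated groups with array weights. Within RG7112, 4 genes were lower in replicates 1 to 3 (CACHD1, RAVER2, ITPRIPL1 and SERPINE2) and CLSTN2 was higher. That is 5 of 10 passing, against 2.14% of all probes (1.2% higher and 0.946% lower). Within HDM201, 4 were lower (CACHD1, RAVER2, SERPINE2 and ZFYVE9) and 2 were higher (CLSTN2 and IER5). That is 6 of 10 passing, against 2.76% of all probes (1.52% higher and 1.23% lower). CACHD1, RAVER2, SERPINE2 and CLSTN2 passed in both. The median size of the set difference of the 10 was 0.48 within RG7112 and 0.67 within HDM201, against 0.15 and 0.13 for all probes. Its signed median was −0.23 and −0.27, against 0.0027 and 0.0035 for all probes. The list holds 5 genes lower and 5 higher in DMSO replicates 1 to 3, so the signed median is not read as a shift of the group. The sign was the same in all 3 groups for 9 genes, the exception being IGSF10. This count uses the DMSO signs that chose the genes, and no share of all probes is given, so it is a description. It includes SPATA6, at 0.05 ± 0.13 (SE) within HDM201, where the sign is not settled. The arrays of the sets did not overlap for 7 of the genes within RG7112 (15% of all probes) and for 8 within HDM201 (24.9% of all probes). In bulk RNA, fewer cells of a type and less RNA per cell cannot be told apart. The size of the difference was smaller than in DMSO for 8 genes within RG7112 and for 9 within HDM201. The genes were chosen on DMSO values, so these size comparisons are not a test. The test was limma with a mean per group and set over all 18 arrays, with Benjamini-Hochberg adjustment across the whole array and a threshold of 0.05. With RG7112 replicate 3 left out the count within HDM201 was 8, and with HDM201 replicate 3 left out it was 4. When only the arrays of the treated group were fitted, the count was 3 within RG7112 and 6 within HDM201.

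**Figure D1:**
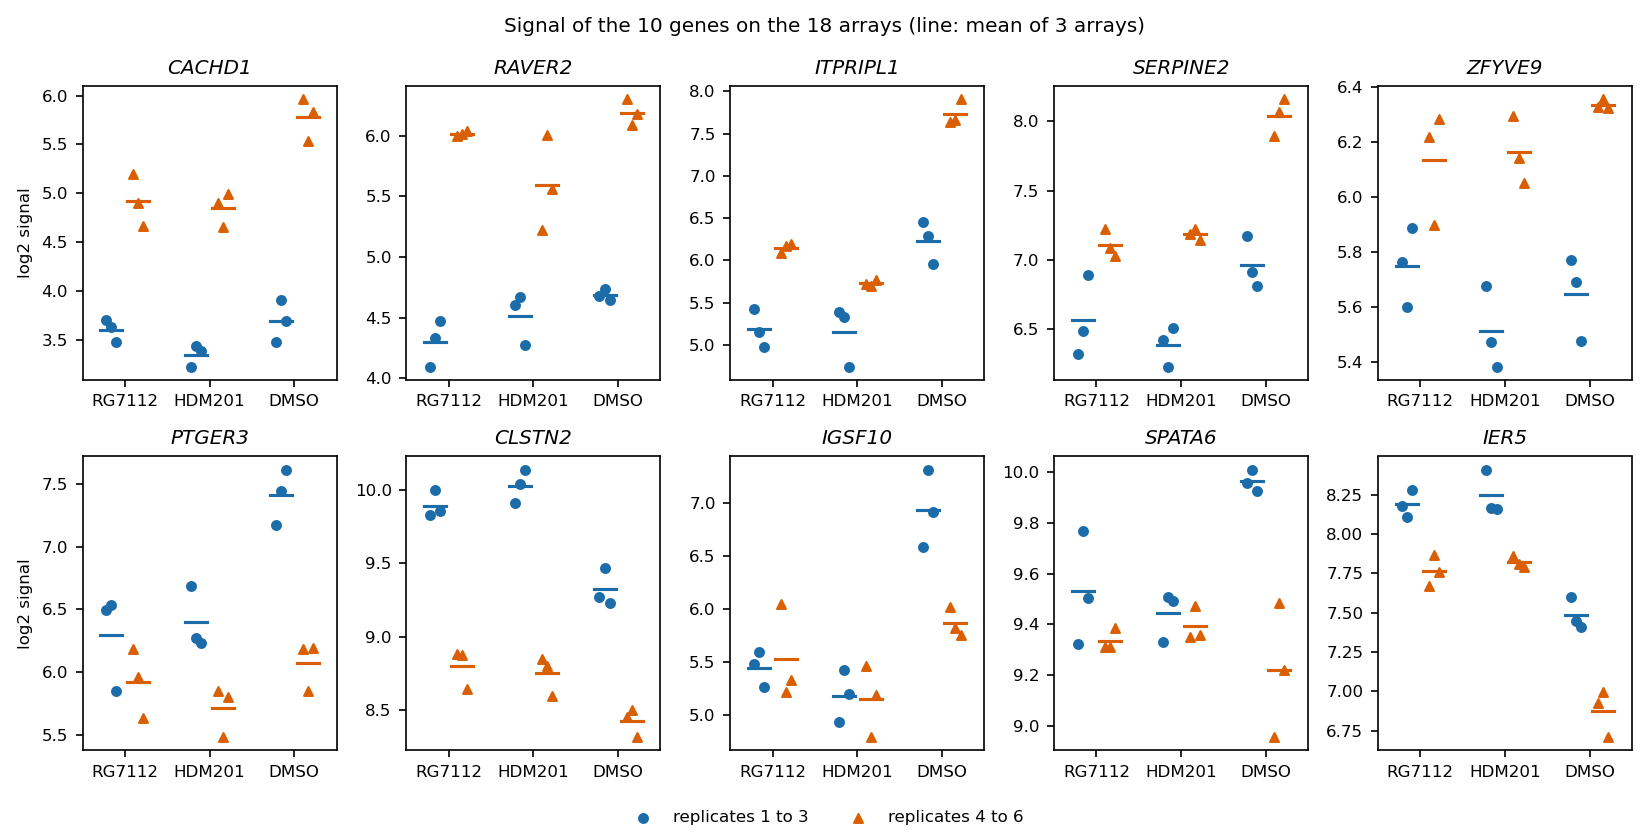
The log2 signal of each gene (vertical axis) on all 18 arrays, by group (horizontal axis), with replicates 1 to 3 as blue circles and 4 to 6 as orange triangles, and lines for the mean of 3 arrays. The sets of CACHD1, RAVER2 and CLSTN2 stay apart in RG7112, HDM201 and DMSO, while those of IGSF10 and SPATA6 overlap in RG7112 and HDM201.

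Among the membrane and signalling genes that were lower in replicates 1 to 3, CACHD1 had the lowest DMSO difference of all. CACHD1 had signals of 3.71, 3.64 and 3.48 in RG7112 replicates 1 to 3 and of 5.20, 4.90 and 4.66 in RG7112 replicates 4 to 6. In HDM201 it had 3.23, 3.44 and 3.39 in replicates 1 to 3 and 4.90, 4.66 and 4.99 in replicates 4 to 6. In DMSO it had 3.48, 3.92 and 3.69 in replicates 1 to 3 and 5.96, 5.54 and 5.83 in replicates 4 to 6. Every array of replicates 1 to 3 was below every array of replicates 4 to 6, across all 3 groups. The set difference was −1.31 ± 0.15 (SE, n = 3 and 3 arrays) within RG7112 (adjusted p = 1.385e-04, limma) and −1.50 ± 0.15 within HDM201 (adjusted p = 2.719e-05, limma). The signals of replicates 1 to 3 lie toward the low end of the arrays, where RMA can compress differences.

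RAVER2, the RNA-binding gene, lies next to CACHD1 on chromosome 1 and had a like pattern. Its signals were 4.10, 4.33 and 4.47 in RG7112 replicates 1 to 3 and 6.00, 6.02 and 6.04 in RG7112 replicates 4 to 6. HDM201 arrays gave 4.60, 4.67 and 4.28 in replicates 1 to 3 and 5.22, 6.01 and 5.56 in replicates 4 to 6. Under DMSO the signals were 4.68, 4.73 and 4.64 in replicates 1 to 3 and 6.30, 6.09 and 6.18 in replicates 4 to 6. The sets did not overlap in any group, and HDM201 replicates 4 to 6 were the most scattered, with an SD of 0.39 (n = 3). Between the sets it differed by −1.72 ± 0.16 (SE) within RG7112, which is 3.29-fold (adjusted p = 1.92e-05, limma), and −1.08 ± 0.16 within HDM201, which is 2.12-fold (adjusted p = 8.172e-04, limma). RAVER2 lay at percentile 33.2 of mean signal, and RMA can compress differences at low signals.

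ITPRIPL1, the CD3 epsilon ligand, was lower in replicates 1 to 3 and had the largest response to treatment among the 10. Its signals were 5.43, 5.15 and 4.97 in RG7112 replicates 1 to 3 and 6.09, 6.17 and 6.19 in RG7112 replicates 4 to 6. The HDM201 arrays held 5.39, 5.34 and 4.74 in replicates 1 to 3 and 5.72, 5.70 and 5.77 in replicates 4 to 6. The DMSO arrays held 6.45, 6.29 and 5.95 in replicates 1 to 3 and 7.64, 7.66 and 7.91 in replicates 4 to 6. The sets did not overlap in any group. Replicates 1 to 3 minus 4 to 6 came to −0.97 ± 0.16 (SE) within RG7112 (adjusted p = 0.004457, limma) and did not pass within HDM201 (−0.57 ± 0.16, adjusted p = 0.0732). The difference within HDM201 passed without RG7112 replicate 3 (adjusted p = 0.0367) and without HDM201 replicate 1 (adjusted p = 0.0496), whereas without HDM201 replicate 3 it was −0.37 (adjusted p = 0.354). The difference within RG7112 was lost when only the RG7112 arrays were fitted (adjusted p = 0.0807), and that within HDM201 passed with array weights (−0.56, adjusted p = 0.0318).

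SERPINE2, the protease inhibitor, was also lower in replicates 1 to 3 of both treated groups. Its signals were 6.33, 6.49 and 6.89 in RG7112 replicates 1 to 3 and 7.22, 7.08 and 7.03 in RG7112 replicates 4 to 6. Under HDM201 they were 6.42, 6.23 and 6.51 in replicates 1 to 3 and 7.19, 7.22 and 7.15 in replicates 4 to 6. Under DMSO they were 7.18, 6.91 and 6.81 in replicates 1 to 3 and 7.89, 8.07 and 8.16 in replicates 4 to 6. The sets did not overlap, and RG7112 replicate 3 was the array of replicates 1 to 3 closest to the other set. Its set difference was −0.80 ± 0.14 (SE) within HDM201 (adjusted p = 0.00325, limma), and −0.54 ± 0.14 within RG7112, which lay at the threshold (adjusted p = 0.0484). That RG7112 call was lost in 16 of the 18 fits that left out 1 array, with adjusted p up to 0.164 without RG7112 replicate 4, and kept without DMSO replicate 1 (0.0437) and without RG7112 replicate 3 (0.00658). It was also lost when only the RG7112 arrays were fitted (adjusted p = 0.425) and with a robust spread estimate that follows the signal (0.0566). With the replicate number as a random block it had adjusted p = 0.0501.

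ZFYVE9, the SMAD anchor, passed within HDM201 and not within RG7112, and the difference between these was not called (−0.27 ± 0.18, adjusted p = 0.9998, limma interaction). Its signals were 5.76, 5.60 and 5.89 in RG7112 replicates 1 to 3 and 6.22, 5.90 and 6.28 in RG7112 replicates 4 to 6. Those of HDM201 were 5.68, 5.47 and 5.38 in replicates 1 to 3 and 6.30, 6.14 and 6.05 in replicates 4 to 6. Those of DMSO were 5.77, 5.69 and 5.47 in replicates 1 to 3 and 6.33, 6.35 and 6.32 in replicates 4 to 6. The sets were separate in each group, with replicates 3 and 5 of RG7112 nearly level. For ZFYVE9 the sets differed by −0.38 ± 0.13 (SE) within RG7112 (adjusted p = 0.134) and −0.65 ± 0.13 within HDM201 (adjusted p = 0.00718, limma), and the HDM201 call was lost without HDM201 replicate 3 (adjusted p = 0.0614). With array weights the RG7112 difference passed (−0.38, adjusted p = 0.0135).

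CLSTN2, the calsyntenin, had the largest treated set difference of the genes higher in replicates 1 to 3. Its signals were 9.83, 10.00 and 9.85 in RG7112 replicates 1 to 3 and 8.88, 8.88 and 8.64 in RG7112 replicates 4 to 6. On HDM201 arrays it read 9.91, 10.04 and 10.14 in replicates 1 to 3 and 8.85, 8.80 and 8.60 in replicates 4 to 6. On DMSO arrays it read 9.27, 9.46 and 9.23 in replicates 1 to 3 and 8.45, 8.50 and 8.31 in replicates 4 to 6. Every array of replicates 1 to 3, DMSO included, was above every array of replicates 4 to 6. The CLSTN2 set difference was 1.09 ± 0.11 (SE) within RG7112, which is 2.13-fold (adjusted p = 5.253e-05, limma), and 1.28 ± 0.11 within HDM201, which is 2.43-fold (adjusted p = 5.359e-06, limma).

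IER5, the immediate early gene, was higher in replicates 1 to 3 of each group. Its signals were 8.18, 8.11 and 8.28 in RG7112 replicates 1 to 3 and 7.67, 7.87 and 7.76 in RG7112 replicates 4 to 6. With HDM201 they were 8.41, 8.17 and 8.16 in replicates 1 to 3 and 7.86, 7.81 and 7.79 in replicates 4 to 6. With DMSO they were 7.60, 7.45 and 7.41 in replicates 1 to 3 and 6.92, 6.99 and 6.71 in replicates 4 to 6. The sets did not overlap, and every treated array was above every DMSO array. The difference for IER5 was 0.42 ± 0.11 (SE) within both RG7112 (adjusted p = 0.0512) and HDM201 (adjusted p = 0.0434, limma), on either side of the threshold. The HDM201 call was lost in 11 of the 18 fits that left out 1 array, with adjusted p up to 0.161 without HDM201 replicate 1. The RG7112 difference passed without RG7112 replicate 2 (adjusted p = 0.0373), without HDM201 replicate 1 (0.0483) and with the replicate number as a random block (0.0486). It also passed with array weights (0.00459), after further quantile normalization (0.0424) and without probes below the median signal (0.0249).

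PTGER3, the prostaglandin receptor, kept the DMSO direction in the treated arrays without passing the test. Its signals were 6.50, 6.54 and 5.85 in RG7112 replicates 1 to 3 and 6.18, 5.96 and 5.63 in RG7112 replicates 4 to 6. For HDM201 they were 6.69, 6.27 and 6.23 in replicates 1 to 3 and 5.85, 5.48 and 5.81 in replicates 4 to 6. For DMSO they were 7.17, 7.44 and 7.61 in replicates 1 to 3 and 6.18, 5.85 and 6.19 in replicates 4 to 6. The sets overlapped in RG7112, where replicate 3 was the low array, and not in HDM201. Its difference between the sets was 0.37 (95% interval −0.04 to 0.78) within RG7112 (adjusted p = 0.365) and 0.68 (0.28 to 1.09) within HDM201 (adjusted p = 0.0711), and without RG7112 replicate 3 the HDM201 difference passed (adjusted p = 0.0177). Without RG7112 replicate 3 the PTGER3 difference within RG7112 was 0.59 (adjusted p = 0.111), and without RG7112 replicate 6 it was 0.22 (adjusted p = 0.700). With array weights, which give deviating arrays less influence, PTGER3 passed within RG7112 at 0.58 (adjusted p = 0.00898) and within HDM201 at 0.69 (adjusted p = 0.0115), and it passed within HDM201 when only those arrays were fitted (adjusted p = 0.0375).

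IGSF10 had no detectable set difference in the treated arrays. Its signals were 5.48, 5.59 and 5.26 in RG7112 replicates 1 to 3 and 6.05, 5.22 and 5.33 in RG7112 replicates 4 to 6. HDM201 signals were 4.93, 5.43 and 5.20 in replicates 1 to 3 and 5.47, 4.79 and 5.19 in replicates 4 to 6. DMSO signals were 6.59, 7.32 and 6.91 in replicates 1 to 3 and 6.02, 5.83 and 5.76 in replicates 4 to 6. The treated sets overlapped, with differences of −0.09 (95% interval −0.55 to 0.38) within RG7112 (adjusted p = 0.887) and 0.03 (−0.43 to 0.50) within HDM201 (adjusted p = 0.968). These intervals do not reach the DMSO difference of 1.07, which is itself a value used in the choice. The difference between DMSO and the treated groups was therefore not tested.

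SPATA6 likewise had overlapping treated sets. Its signals were 9.32, 9.77 and 9.50 in RG7112 replicates 1 to 3 and 9.31, 9.31 and 9.39 in RG7112 replicates 4 to 6. In HDM201 they were 9.33, 9.51 and 9.49 in replicates 1 to 3 and 9.35, 9.47 and 9.36 in replicates 4 to 6. In DMSO they were 9.96, 10.01 and 9.93 in replicates 1 to 3 and 8.95, 9.49 and 9.22 in replicates 4 to 6. Set differences of SPATA6 were 0.20 (95% interval −0.08 to 0.47) within RG7112 (adjusted p = 0.486, limma) and 0.05 (−0.22 to 0.32) within HDM201 (adjusted p = 0.913).

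**Figure D2:**
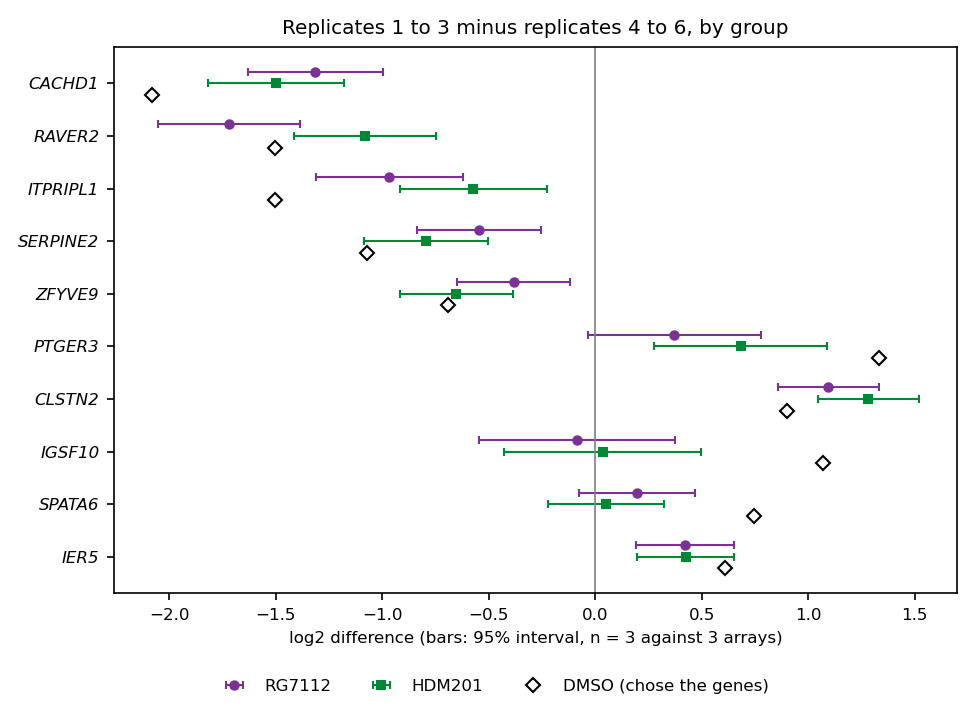
The log2 difference between replicates 1 to 3 and 4 to 6 (horizontal axis) of each gene (rows), with 95% intervals for RG7112 (purple circles) and HDM201 (green squares) and with the DMSO values that chose the genes as open diamonds, which carry no interval. CLSTN2 is at 1.09 and 1.28 in RG7112 and HDM201, whereas the intervals of IGSF10 and SPATA6 hold 0.

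Treatment changed most of these genes. Averaged over both sets, RG7112 raised 2 of the 10 genes and lowered 5, with 3 not passing, against 20.3% of all probes called (9.19% higher and 11.1% lower). HDM201 raised 2 and lowered 6, with 2 not passing, against 21.1% of all probes called (10.1% higher and 11% lower). The 7 genes that changed under RG7112 also changed under HDM201, and RAVER2 passed under HDM201 and not under RG7112, a difference between the compounds that was itself not called. Both comparisons use the same DMSO arrays, and no share of all probes is given for the joint count of 7, so it is a description. The sets have equal weight in the average, which makes it independent of the DMSO difference between the sets. The median change of the 10 was −0.38 under RG7112 and −0.51 under HDM201, against 0.03 and 0.02 for all probes. Changes within each set share the DMSO values that chose the genes and are given as values with no test. Over all 6 arrays per group, RG7112 and DMSO did not overlap for IER5 alone (9.9% of all probes), and HDM201 and DMSO did not overlap for IER5, ITPRIPL1 and IGSF10 (13.6% of all probes).

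The genes that rose were IER5 and CLSTN2. IER5 rose by 0.80 ± 0.08 (SE, n = 6 and 6 arrays) under RG7112 (adjusted p = 3.56e-07, limma) and by 0.85 ± 0.08 under HDM201 (adjusted p = 1.025e-07). Within replicates 1 to 3 the changes of IER5 were 0.70 and 0.76 under the compounds, and within 4 to 6 they were 0.89 and 0.95. CLSTN2 rose by 0.48 ± 0.08 under RG7112 (adjusted p = 2.247e-04, limma) and by 0.52 ± 0.08 under HDM201 (adjusted p = 7.19e-05). Within replicates 1 to 3 the changes of CLSTN2 were 0.57 and 0.71, and within 4 to 6 they were 0.38 and 0.33. In a model with a mean per group and no sets, the CLSTN2 changes did not pass (adjusted p = 0.316 under RG7112 and 0.294 under HDM201), since such a model counts the set difference as spread.

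Genes lowered by both compounds were led by ITPRIPL1, the CD3 epsilon ligand, and IGSF10. ITPRIPL1 fell by 1.32 on the log2 scale under RG7112, which is 2.49-fold (SE 0.12, adjusted p = 1.125e-07, limma), and by 1.54 under HDM201, which is 2.91-fold (SE 0.12, adjusted p = 9.595e-09). Its changes were −1.05 and −1.08 within replicates 1 to 3, and −1.58 and −2.004 within 4 to 6. IGSF10 fell by 0.91 under RG7112 (SE 0.16, adjusted p = 2.458e-04, limma) and by 1.24 under HDM201 (SE 0.16, adjusted p = 6.709e-06). Within replicates 1 to 3 its changes were −1.49 and −1.75, and within 4 to 6 they were −0.34 and −0.72. These IGSF10 values are larger in the set where its DMSO signal was the higher one, which is also the value that chose the gene.

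SERPINE2, PTGER3 and CACHD1 fell less. SERPINE2 fell by 0.66 under RG7112 (SE 0.10, adjusted p = 5.778e-05, limma) and by 0.72 under HDM201 (SE 0.10, adjusted p = 1.927e-05). Within replicates 1 to 3 the SERPINE2 changes were −0.40 and −0.58, and within 4 to 6 they were −0.93 and −0.85. Its RG7112 and DMSO arrays overlapped within replicates 1 to 3. PTGER3 fell by 0.63 under RG7112 (SE 0.14, adjusted p = 0.002458, limma) and by 0.69 under HDM201 (SE 0.14, adjusted p = 9.891e-04). Within replicates 1 to 3 the PTGER3 changes were −1.11 and −1.01, and within 4 to 6 they were −0.15 and −0.36. CACHD1 fell by 0.47 under RG7112 (SE 0.11, adjusted p = 0.003517, limma) and by 0.64 under HDM201 (SE 0.11, adjusted p = 1.897e-04). Within replicates 1 to 3, where its signal is near the lowest on the arrays, the CACHD1 changes were −0.09 and −0.35, and within 4 to 6 they were −0.86 and −0.93. Without the sets in the model CACHD1 passed under neither compound (adjusted p = 0.530 under RG7112 and 0.409 under HDM201), nor did PTGER3 (0.122 and 0.0906), and SERPINE2 did not pass under RG7112 (0.0661).

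The remaining 3 genes moved least. RAVER2 fell by 0.38 under HDM201 (SE 0.11, adjusted p = 0.0194, limma) and had a change of −0.28 under RG7112 that did not pass (adjusted p = 0.0895). Its call under HDM201 did not hold without DMSO replicate 4 (adjusted p = 0.0507), HDM201 replicate 3 (0.0628) or HDM201 replicate 4 (0.0585), with the replicate number as a block (0.0575) or without the sets in the model (0.608). Its RG7112 change passed with array weights (−0.37, adjusted p = 0.00338), without HDM201 replicate 5 (adjusted p = 0.0411) and when only the arrays compared were fitted (0.0349). ZFYVE9 had changes of −0.05 (95% interval −0.24 to 0.14) under RG7112 and −0.15 (−0.34 to 0.03) under HDM201 that did not pass. SPATA6 had changes of −0.16 (−0.35 to 0.03) under RG7112 and −0.17 (−0.37 to 0.02) under HDM201, which did not pass in this model and which differed in sign between the sets, as given in the closing section. With array weights the SPATA6 change under RG7112 passed (−0.26, adjusted p = 0.00721).

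**Figure D3:**
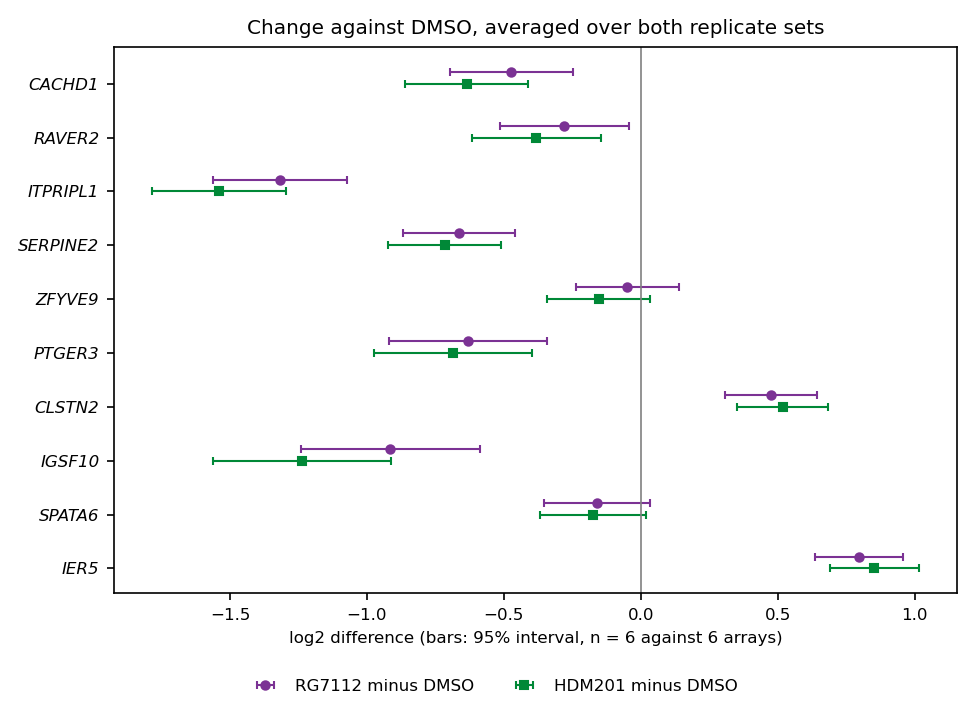
The log2 change of each gene (rows) against DMSO averaged over both sets (horizontal axis), with 95% intervals, for RG7112 (purple circles) and HDM201 (green squares). IER5 and CLSTN2 lie above 0 and ITPRIPL1, IGSF10, PTGER3, SERPINE2 and CACHD1 below it, while the intervals of ZFYVE9 and SPATA6 hold 0 under both compounds.

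The compounds did not differ detectably in any of the 10 genes. For HDM201 minus RG7112, limma called 0 of the 10 genes and 0 of 21448 probes, with 0 of the 10 genes and 4.67% of all probes at an unadjusted p under 0.05. The smallest adjusted p was 0.947, shared by CACHD1, RAVER2, ITPRIPL1, IGSF10 and ZFYVE9, and the smallest unadjusted p was 0.0524, for IGSF10 at −0.32 (limma, 95% interval −0.65 to 0.004). The doses differ, 500 nM for HDM201 and 2 µM for RG7112, so a lack of difference does not show that the compounds act alike. Whether HDM201 minus RG7112 differed between the sets was tested as an interaction, which called 0 of the 10 genes and 0 of all probes, with 1 of the 10 (RAVER2) and 3.56% of all probes at an unadjusted p under 0.05. RAVER2 differed by 0.64 ± 0.22 (SE, adjusted p = 0.9998), from a HDM201 minus RG7112 difference of 0.22 in replicates 1 to 3 and of −0.42 in replicates 4 to 6.

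As a mean, the p53 targets moved with the sets as well, and their part in the set differences above was not tested. The mean of 22 measured targets of 25 listed was 10.13 in RG7112 replicates 1 to 3 and 9.58 in RG7112 replicates 4 to 6. It was 10.22 in replicates 1 to 3 and 9.67 in replicates 4 to 6 of HDM201, and 8.30 and 7.76 in the same sets of DMSO. Set differences of single targets within DMSO ran from −0.032 for TP53I3 to 1.65 for CDKN1A. All 22 rose under both compounds, with median changes of 1.54 and 1.67 against 0.03 and 0.02 for all probes. Of all probes 9.19% rose under RG7112 and 10.1% under HDM201. Between the sets 11 of the 22 were higher in replicates 1 to 3 within RG7112 and 7 within HDM201, with 0 lower in either. Of all probes 1.2% and 1.52% were higher there. The genes followed here were chosen for a DMSO difference between the sets, with earlier results of these data known. Whether that choice is independent of p53 was not tested.

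Other genes of the same pathways were counted from lists written with earlier results of these data in view. For comparison, 20.3% of all probes were called under RG7112 and 21.1% under HDM201, and 2.14% and 2.76% between the sets. Nothing particular to a list is read from its count. In the prostaglandin E2 list, with 11 of 11 measured, 1 gene rose and 3 fell under each compound (median 0.08 under RG7112 and 0.04 under HDM201). PTGER4, the EP4 receptor, rose by 1.24 under RG7112 (adjusted p = 2.03e-08, limma) and by 1.30 under HDM201 (adjusted p = 6.9e-09), opposite to PTGER3. PTGER4 was higher in replicates 1 to 3 by 0.93 within RG7112 and by 0.78 within HDM201. The synthesis enzyme PTGS1 fell by 0.60 under RG7112 and by 0.61 under HDM201, and was lower in replicates 1 to 3 by 0.57 within RG7112 and by 0.59 within HDM201. ABCC4, an exporter of prostaglandins, was lower in replicates 1 to 3 by 0.55 within RG7112 and by 0.83 within HDM201.

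In the plasminogen and thrombin list 2 of 9 measured genes rose under each compound and 0 fell (median 0.08 and 0.07). PLAU, which encodes the urokinase that SERPINE2 inhibits, rose by 0.66 under RG7112 (adjusted p = 6.92e-05, limma) and by 0.76 under HDM201 (adjusted p = 1.19e-05), and LRP1, a receptor for protease complexes, by 0.85 and 0.97. PLAU was higher in replicates 1 to 3 by 0.72 within RG7112 (adjusted p = 0.0108, limma) and by 0.83 within HDM201 (adjusted p = 0.00265), where SERPINE2 was lower. Among the immediate early and heat shock genes, 8 of 9 measured, 1 rose and 3 fell under each compound (median −0.08 and −0.05). IER3 rose by 1.64 under RG7112 and 2.02 under HDM201 and was higher in replicates 1 to 3 by 1.14 and 1.49. HSPA1A, DNAJB1 and HSPH1, chaperones under heat shock factor 1, fell under both compounds, by 0.38 to 0.45 under RG7112.

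The other partners mostly did not pass between the sets. Among calcium channel subunits related to CACHD1, 1 of 6 measured rose under each compound (CACNA2D4, by 0.63 and 0.70, limma) and 0 passed between the sets. Of the raver and PTB splicing genes, RAVER1 fell by 0.40 and 0.42 and PTBP3 rose by 0.36 and 0.45 among 3 measured, and 0 passed between the sets. In the IP3 receptor list, 5 of 5 measured, ITPR2 and ITPRIPL2 rose under each compound and ITPR3 fell under RG7112 (adjusted p = 0.0985 under HDM201, not called), and 0 passed between the sets. In the calsyntenin and neurexin list, 4 of 5 measured, CLSTN3 rose under each compound and NRXN2 under RG7112, and 0 passed between the sets. In the TGF-beta list, 11 of 11 measured, TGFBR2 and ZFYVE16 rose under each compound, and 0 passed between the sets.

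Genes whose signal ran with those of the 10 were named over the 12 treated arrays, as deviations from the means of RG7112 and of HDM201. These arrays share the split into sets, so correlations of genes with a set difference describe it, and none carries a p. The treated sets of IGSF10 and SPATA6 overlapped, so their correlations are not read as describing the split. Each closest gene is the highest of 17687 named genes over only 12 arrays. OR1L4, named below for IGSF10, had a mean signal of 3.87, toward the low end of the arrays. The closest gene to CACHD1 was CPAP (Pearson r = 0.974), a centriole protein, and to RAVER2 GREB1 (r = 0.959). CLSTN2 was closest to the p53 target TP53I3 (r = 0.989) and to FCER1A (r = 0.987), which encodes the alpha chain of the IgE receptor. The gene that ran most against CLSTN2 was the receptor kinase FLT3 (r = −0.978), and the one most against CACHD1 was DSEL (r = −0.985), which was also the closest gene to IER5 (r = 0.959). ITPRIPL1 was closest to ACAD10 (r = 0.968), SERPINE2 to ARRDC1 (r = 0.945), PTGER3 to ZNF641 (r = 0.934), IGSF10 to OR1L4 (r = 0.929), SPATA6 to COQ10B (r = 0.935) and ZFYVE9 to AKT1 (r = 0.961). Among the 10 themselves CACHD1 ran against CLSTN2 (r = −0.955) and IER5 with CLSTN2 (r = 0.902), while IGSF10 was at most 0.277 from 0 with any of the others.

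Of the 10 genes, 6 lie on chromosome 1, 2 on chromosome 2 and 2 on chromosome 3, per the RefSeq annotation, and the array's own build is not given in the sources used here. CACHD1 and RAVER2 are adjacent in it. JAK1, the next measured gene after RAVER2, showed set differences of 0.08 within RG7112 and 0.16 within HDM201, neither of which passed. AK4, an adenylate kinase 2 places further, had differences of −1.30 (adjusted p = 0.114) and −1.31 (adjusted p = 0.101), which did not pass, with SE of 0.41. Of 90 distinct measured neighbours within 5 places of the 10 genes, 2 passed within RG7112 (MR1 and STX6, the first 2 genes on one side of IER5) and 3 within HDM201 (MR1, GLUL, also near IER5, and NCAPH, next to ITPRIPL1). These counts, 2 and 3 of 90, are near the 2.14% and 2.76% of all probes called, so nothing is read from them about the neighbourhood. MR1, an antigen-presenting molecule, passed in both, higher in replicates 1 to 3 by 0.53 and 0.45. STX6 differed by 0.55 within RG7112, GLUL by −0.94 and NCAPH by −0.81 within HDM201.

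**Figure D4:**
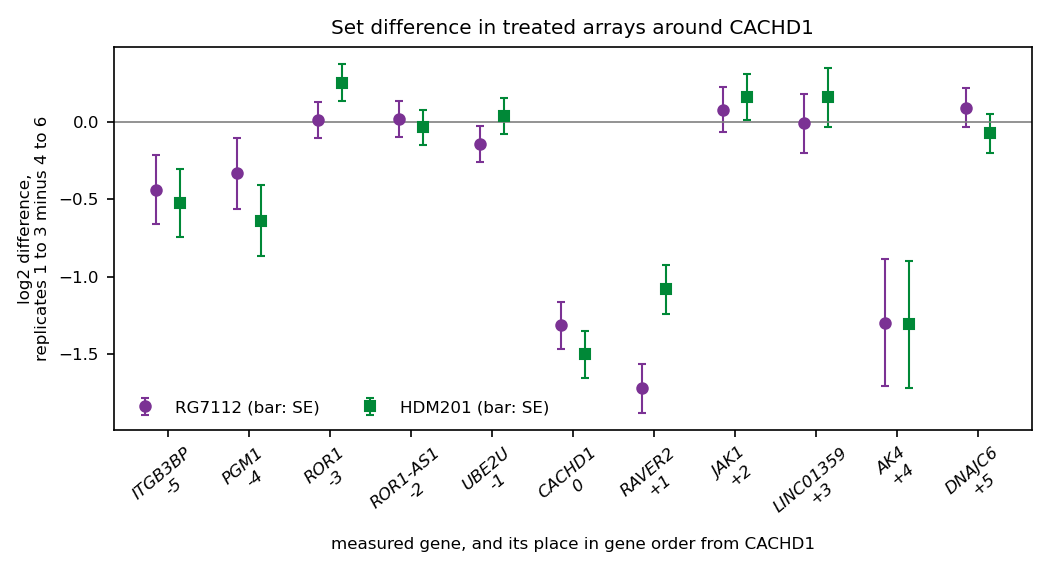
The log2 difference between replicates 1 to 3 and 4 to 6 (vertical axis, bars show SE) of CACHD1 and its measured neighbours in gene order (horizontal axis) within RG7112 (purple circles) and HDM201 (green squares). CACHD1 and the adjacent RAVER2 are well below 0, JAK1 is near 0 and AK4 is low with a wide error.

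None of the 10 genes lies on chromosome 13, where the genes had a lower median in replicates 1 to 3 of each group. Over its 290 measured genes the median difference between replicates 1 to 3 and 4 to 6 was −0.087 within RG7112, −0.12 within HDM201 and −0.099 within DMSO. The medians of the other chromosomes lay between −0.032 and 0.044 within RG7112, between −0.034 and 0.047 within HDM201, and between −0.015 and 0.014 within DMSO. Chromosome 1, which holds 6 of the 10, had medians of 0.0025, 0.0048 and 0.0028 in RG7112, HDM201 and DMSO. Chromosome 3, which holds CLSTN2 and IGSF10, was the lowest of the other chromosomes in each group, at −0.032, −0.034 and −0.015, with 17 genes lower and 7 higher within RG7112 and 26 lower and 9 higher within HDM201. On chromosome 13, 29 genes were lower in replicates 1 to 3 and 0 higher within RG7112, and 31 were lower and 1 higher within HDM201. The part of this shift in the differences of the 10 genes was not tested.

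**Figure D5:**
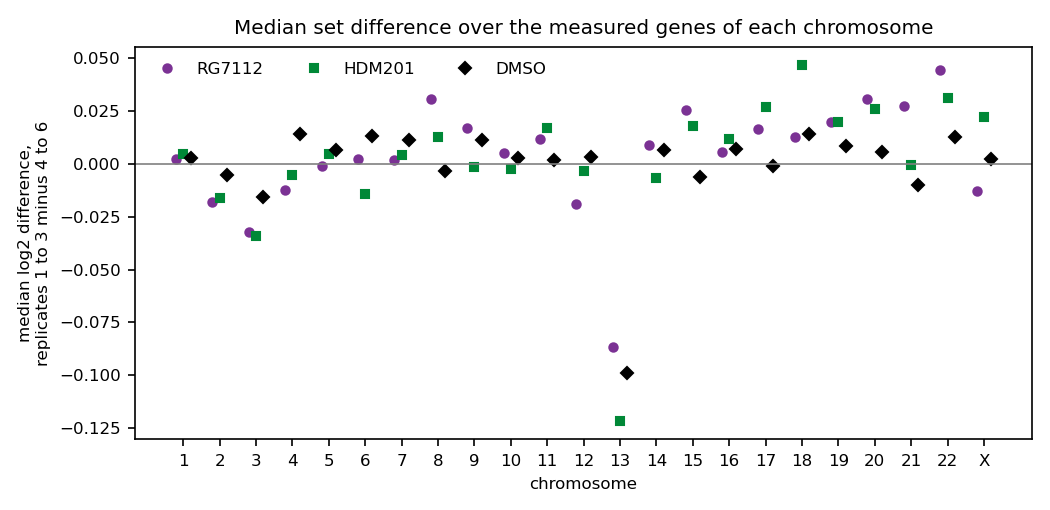
The median log2 difference between replicates 1 to 3 and 4 to 6 over the measured genes of each chromosome (horizontal axis), for RG7112 (purple circles), HDM201 (green squares) and DMSO (black diamonds). Chromosome 13 lies below all others in each group, and chromosome 3, which holds CLSTN2 and IGSF10, is the next lowest.

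Promoter windows show what the starts of the genes look like, and 8 of the 10 genes have them (250 bases before to 50 after the start, RefSeq, GRCh38.p14). The 4 printed are those of CLSTN2 and CACHD1, the genes with the highest and the lowest set difference over the treated arrays, and of ITPRIPL1 and IGSF10, which changed most against DMSO among the others. ITPRIPL1 has 4 windows and IGSF10 has 3 in the table, and the first of each is printed. Motifs were searched on both strands and are in capitals: the CCAAT box CCAAT, the GC box GGGCGG, the TATA box TATAAA, the E box CACGTG, the heat shock element core GAANNTTC and the p53 half-site.
CLSTN2 (chr3:139934935-139935234, plus strand): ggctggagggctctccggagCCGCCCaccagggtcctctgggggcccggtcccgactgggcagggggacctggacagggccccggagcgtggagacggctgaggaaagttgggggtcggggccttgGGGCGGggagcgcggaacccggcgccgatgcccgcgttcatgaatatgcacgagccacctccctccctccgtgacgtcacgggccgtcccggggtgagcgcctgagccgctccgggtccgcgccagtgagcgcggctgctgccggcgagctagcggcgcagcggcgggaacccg
CACHD1 (chr1:64469879-64470178, plus strand): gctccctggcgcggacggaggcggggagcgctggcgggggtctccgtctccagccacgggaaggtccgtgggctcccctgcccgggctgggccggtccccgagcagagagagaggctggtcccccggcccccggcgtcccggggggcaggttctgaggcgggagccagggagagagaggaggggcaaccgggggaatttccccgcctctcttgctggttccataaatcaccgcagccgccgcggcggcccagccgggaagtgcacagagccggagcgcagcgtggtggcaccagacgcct
ITPRIPL1 (chr2:96325067-96325366, plus strand): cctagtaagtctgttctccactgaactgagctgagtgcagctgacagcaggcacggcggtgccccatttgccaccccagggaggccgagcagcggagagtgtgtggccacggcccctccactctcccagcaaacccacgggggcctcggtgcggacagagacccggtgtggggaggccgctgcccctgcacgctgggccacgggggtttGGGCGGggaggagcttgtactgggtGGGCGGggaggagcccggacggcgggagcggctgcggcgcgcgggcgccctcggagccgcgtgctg
IGSF10 (chr3:151539267-151539566, minus strand): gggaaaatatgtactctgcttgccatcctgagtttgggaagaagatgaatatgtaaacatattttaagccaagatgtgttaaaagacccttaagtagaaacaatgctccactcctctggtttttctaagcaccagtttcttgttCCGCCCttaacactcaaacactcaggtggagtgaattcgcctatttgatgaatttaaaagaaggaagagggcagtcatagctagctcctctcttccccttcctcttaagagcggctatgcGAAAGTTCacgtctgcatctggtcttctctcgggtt

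CLSTN2 holds 2 GC boxes and ITPRIPL1 2, CACHD1 holds none of the motifs, and IGSF10 holds 1 GC box and 1 heat shock element core. A GC box occurs in 45.0% of 35116 windows, a CCAAT box in 34.6%, a TATA box in 11.5%, an E box in 7.3%, a heat shock element core in 6.8% and a p53 half-site in 6.6%. CLSTN2 has 36 CG dinucleotides, CACHD1 29, ITPRIPL1 26 and IGSF10 6, against a median of 14 over all windows. The other 3 ITPRIPL1 windows, which are not printed and may overlap each other, hold 1 p53 half-site each. The IER5 window, not printed, holds 2 CCAAT boxes and 1 heat shock element core and no p53 half-site. A match in these windows is a description of the letters, and no match says only that they are not in the window.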

How the data were processed

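RNA of 18 cultures was measured on Affymetrix arrays after WT Pico amplification and biotin labelling, per the labels. The authors deposited log2 signals made with oligo and RMA, per the submitters' processing notes, which corrects background, quantile normalises across arrays and summarises probe sets, and can compress low signals. The sources used here give neither tool versions nor a genome build. All columns have a sample. The platform annotation gave 17709 of 21448 probes 1 symbol, 0 several and 3739 none. The highest-mean probe stood for a symbol.

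One mean per group and set (12 residual degrees of freedom) was fitted to every probe (limma 3.58.1, R 4.3.3), adjusted over all probes by Benjamini and Hochberg with a threshold of 0.05. The fit was tested on simulated data, with no outcome given here, so nothing about these arrays is read from that. The members, lists, tests and named genes were chosen with earlier results of these data known. The text names the 10 genes, CDKN1A, MDM2, up to 3 called genes with the largest difference per list, the correlated genes, called neighbours and 4 promoters. AK4, JAK1, markers, STX6, GLUL, NCAPH and values of list genes beyond that were chosen after seeing them. Alternatives are in the closing section.

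Same-numbered arrays deviated from group means with correlations of 0.017 to 0.44, and from group-and-set means with −0.05 to 0.332. For HDM201 and RG7112 every one from group means was over 0.1 (0.117 to 0.44), but these hold the set difference itself, and from group-and-set means they ran from −0.046 to 0.332. Most correlations from group-and-set means were positive, and the negative ones were −0.05, −0.046 and −0.014. Whether arrays are paired by number beyond the sets was not tested. The main design has no block. In limma with the replicate number as a random block (correlation 0.0775), RAVER2 under HDM201 no longer passed (adjusted p = 0.0575). Within RG7112, SERPINE2 no longer passed between the sets (0.0501) and IER5 did (0.0486).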

Additional observations from a re-analysis of the deposited data

Results flagged for a closer look

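The differences of SPATA6 from DMSO were of opposite sign in the sets, on every array against the mean of its DMSO set, and the difference between them was not tested, since it holds the DMSO values that chose the gene. Under RG7112 its change was −0.43 in replicates 1 to 3 and 0.12 in replicates 4 to 6. Under HDM201 it was −0.52 in replicates 1 to 3 and 0.17 in replicates 4 to 6. Neither average over the sets passed the test, but with array weights the SPATA6 change under RG7112 was −0.26 and passed (adjusted p = 0.00721, limma).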

How the results depend on the processing

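The array-weights fit called 8 of the 10 between the sets within RG7112 and 8 within HDM201, 9 under RG7112 and 8 under HDM201. Between the sets, a fit on the RG7112 arrays alone called 3 and a fit on the HDM201 arrays alone called 6. Leaving out probes below the median signal kept only 4 of the genes and called 3 of them in each comparison with DMSO and in each set comparison. With no replicate sets 3 changed under RG7112 and 4 under HDM201. Reversed values, none called, for HDM201 minus RG7112 were RAVER2 0.0186, SERPINE2 0.0560 and SPATA6 0.0821 with array weights, SPATA6 0.000529 with medians subtracted, RAVER2 0.22 and PTGER3 0.10 within replicates 1 to 3, and SERPINE2 0.0737, CLSTN2 −0.0513, SPATA6 0.0575 and ZFYVE9 0.0300 within 4 to 6. For its difference between the sets they were SPATA6 0.0410 with array weights and IER5 −0.00501 with medians subtracted and −0.00820 after further quantile normalization. The causes were not tested. Leaving out each array in turn gave counts of 7 to 8 under RG7112, 7 to 8 under HDM201, 0 between the compounds, 4 to 5 within RG7112 and 4 to 8 within HDM201. It also turned the sign of ZFYVE9 under RG7112 (−0.0916 to 0.00996), of SERPINE2 (−0.11 to 0.0286), PTGER3 (−0.17 to 0.00958) and SPATA6 (−0.0674 to 0.0441) for HDM201 minus RG7112, of IGSF10 between the sets (−0.24 to 0.17 within RG7112 and −0.14 to 0.19 within HDM201), and of IGSF10 (−0.14 to 0.28) and IER5 (−0.0788 to 0.0501) for its difference between the sets. The replicate block gave 7 under RG7112, 7 under HDM201, 0 between the compounds, 5 within RG7112 and 6 within HDM201, and a random block correlation of 0.0775. The calls it changed are given in the report. Averaging the probes of a gene changes nothing here, since each has 1. The number of arrays limits the precision.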
